A study of Homo sapiens with 8 samples.

Results

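The RNAs described here are 6 long noncoding RNAs listed together as nuclear RNAs: NEAT1, MALAT1, KCNQ1OT1, TUG1, OIP5-AS1 and MIAT. Where in the cell they lie was not measured here, and not all of them are restricted to the nucleus. They were chosen by gene symbol, around NEAT1, because NEAT1 had differed between libraries of the same treatment. All 6 were among the 23459 gene rows of the count table, and all 6 were among the 13925 genes that passed a filter on low counts and were tested. RNA came from Hct116, a long-established cell line of a human colorectal carcinoma. The cells received either 30 μM lenalidomide, a drug that binds the CRBN subunit of the CRL4 ubiquitin ligase, or DMSO, its solvent, for 16 h, with 4 libraries per treatment. By the study's methods both treatments coincided with a change to medium with isotope-labelled amino acids, as the cultures were also used for mass spectrometry. Part of the replicates were label swap experiments, and which RNA libraries these are is not given in the sources used here. A figure legend of the study calls the replicates biological. A passage of its methods on the mass spectrometry calls the replicates there technical. The p-values of the treatment comparison therefore weigh a difference against the spread between these libraries. Those of the correlations come from permuted pairings of the same libraries.

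Long noncoding RNAs of the nucleus act as scaffolds or in cis at their own locus. NEAT1 is the architectural RNA of paraspeckles, bodies that assemble on its long form together with proteins such as SFPQ and NONO. MALAT1 is retained in nuclear speckles, where splicing factors are stored. KCNQ1OT1 is an unspliced antisense RNA that starts within KCNQ1 on the paternal chromosome and silences imprinted neighbours such as CDKN1C. TUG1 is a spliced RNA found in both nucleus and cytoplasm, OIP5-AS1 (also called cyrano) is known for a site that binds miR-7, and MIAT accumulates in its own nuclear bodies in neurons.

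NEAT1 and MALAT1 are neighbours on the plus strand of chromosome 11, with 52099 bases between the annotated end of NEAT1 (65190245 to 65213011 on GRCh37) and the annotated start of MALAT1 (65265111 to 65275544). The long form of NEAT1 and MALAT1 do not end in a poly(A) tail. A U-rich and an A-rich tract pair near the end of each RNA, and RNase P cleaves behind them and releases a small tRNA-like RNA. These ends are shown because NEAT1 and MALAT1 share them. TUG1, OIP5-AS1 and MIAT, which lie on other chromosomes, were not searched for the motifs below. The windows are chr11:65212912-65213071 for NEAT1 and chr11:65273488-65273647 for MALAT1, both on the plus strand of GRCh37, the build of the authors' alignment. Capitals mark AAAAGCAAAA, the last 10 bases of annotated NEAT1, and its reverse complement TTTTGCTTTT.
NEAT1: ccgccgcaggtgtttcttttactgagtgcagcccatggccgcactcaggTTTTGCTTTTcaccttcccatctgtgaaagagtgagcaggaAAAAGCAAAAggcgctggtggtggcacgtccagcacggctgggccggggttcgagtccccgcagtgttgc
MALAT1: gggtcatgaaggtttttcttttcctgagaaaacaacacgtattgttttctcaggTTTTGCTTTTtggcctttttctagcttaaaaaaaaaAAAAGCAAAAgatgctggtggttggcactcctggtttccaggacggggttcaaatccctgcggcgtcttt

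In NEAT1 31 bases lie between both motifs and in MALAT1 26. By the choice of the motif, the last base of the A-rich motif of NEAT1, 65213011, is the annotated end of the gene. In MALAT1 this motif ends at 65273587, before the annotated end of the gene at 65275544. The motifs in this order within 60 bases of each other occurred at 4 places on chromosome 11, on either strand, of which NEAT1 and MALAT1 are a pair and KCNQ1OT1 holds 0. Of 819555 windows of 160 bases on that chromosome, 0.000366% held both motifs. The table has 1 count per gene, so that the short and the long form of NEAT1 cannot be told apart and the released small RNAs were not measured as such.

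The other members lie at 2618538 to 2721233 on the minus strand of chromosome 11 (KCNQ1OT1), 31365231 to 31375381 on the plus strand of chromosome 22 (TUG1), 41576156 to 41614590 on the plus strand of chromosome 15 (OIP5-AS1) and 27042375 to 27072438 on the plus strand of chromosome 22 (MIAT), all on GRCh37. GENCODE annotates TUG1 as protein coding and the others as lncRNA. Annotated exons of other genes overlap 5 of the 6 members, NEAT1 being the exception. These are TALAM1 on the opposite strand for MALAT1, KCNQ1 on the opposite strand for KCNQ1OT1, OIP5 on the opposite strand and NUSAP1 on the same strand for OIP5-AS1, and MIATNB on the same strand for MIAT. Genes without a name also overlap MALAT1, TUG1, OIP5-AS1 and MIAT, and those of TUG1 are antisense. The strand setting of the counting is not named, so that reads of such partners could have been shared.

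Library totals ran from 35268940 to 37473413 counts with DMSO and from 28218471 to 33659982 with lenalidomide, so that every lenalidomide library was smaller. Of 6 epithelial markers all 6 were detected, from CDX2 at 8.30 CPM to KRT19 at 836.6 CPM on average (CPM stands for read counts scaled to the library total times its TMM factor). PTPRC, CD3E, MS4A1, PECAM1 and CDH5, markers of blood and endothelial cells, had between 0 and 6 counts per library. Of 10 markers of other cell types, 2 passed the filter, COL1A1 with 81 to 122 counts and DES with 27 to 70, and the remaining markers, COL3A1, RBFOX3 and ALB, had at most 12. The library lenalidomide replicate 4 stood apart, with the lowest total and with counts for 19568 genes, against 16953 to 18476 in the other 7. Several results of the members that rest on it are also given without it.

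The members differed in level by orders of magnitude, and their order per exonic width was the same in all 8 libraries. Levels between genes were compared per length, as CPM per kilobase of exonic width. MALAT1 was the most abundant, at 212.2 ± 14.4 CPM per kilobase with DMSO and 248.6 ± 74.9 with lenalidomide (SD, n = 4 each). OIP5-AS1 followed at 22.3 ± 1.43 CPM per kilobase with DMSO, and TUG1 at 12.25 ± 0.651 (SD, n = 4 each). NEAT1 was at 1.98 ± 0.803 CPM per kilobase with DMSO and at 3.025 ± 2.05 with lenalidomide (SD, n = 4 each). KCNQ1OT1, at 0.231 ± 0.0369 CPM per kilobase, and MIAT, at 0.131 ± 0.0196, were the lowest with DMSO (SD, n = 4 each). The ranges of neighbours in this order did not overlap across the 8 libraries. The closest were KCNQ1OT1 and MIAT, whose ratio per length ran from 1.30 to 3.21, and OIP5-AS1 and TUG1, from 1.37 to 2.01. The level per length of NEAT1 was between 0.593% and 1.70% of that of MALAT1. For NEAT1 the exonic width was 21760 bases, and its short and long form are not told apart by the counts. Its place in the order and this percentage hold for that width only.

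NEAT1 was chosen for its spread, which is therefore given as a description. With DMSO its level was 25.2, 55.05, 31.1 and 60.8 CPM in replicates 1 to 4. With lenalidomide it was 76.9, 24.9, 37.5 and 123.9 CPM in the same order. Both treatments thus held libraries at about the same low level and libraries well above it, and the treatments overlapped. The highest library was 4.97-fold above the lowest. The coefficient of variation was 40.6% with DMSO and 67.7% with lenalidomide, where counting error alone gives 2.71% and 2.61%. Of 9094 genes that averaged 10 CPM or more, 0 had a larger standard deviation of log2 CPM within treatments than NEAT1, at 0.85 against a median of 0.091.

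MALAT1 spread less on a relative scale, and mainly among the lenalidomide libraries. Its values were 1703, 1929, 1784 and 1973 CPM with DMSO, a coefficient of variation of 6.78%. They were 2470, 1488, 1777 and 2924 CPM with lenalidomide, a coefficient of variation of 30.1%. Replicates 1 and 4 with lenalidomide were above all DMSO libraries and replicate 2 was below them. MALAT1 had at least 49323 counts in each library, and counting error alone gives a coefficient of variation of 0.387% with DMSO and 0.395% with lenalidomide. Its standard deviation of log2 CPM within treatments was 0.32, and 52 of the 9094 genes had a larger one.

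KCNQ1OT1, the long antisense RNA, was at 18.2, 19.4, 21.2 and 25.9 CPM in the DMSO libraries and at 31.4, 18.5, 23.9 and 49.2 CPM in those with lenalidomide. Replicates 1 and 4 with lenalidomide were again above all DMSO libraries. The counts behind these values were between 614 and 1418, and the coefficient of variation was 16.0% with DMSO and 43.4% with lenalidomide, where counting error gives 3.64% and 3.41%. Its standard deviation of log2 CPM within treatments was 0.45, and 12 of the 9094 genes had a larger one. Without lenalidomide replicate 4, the coefficient of variation pooled over treatments went from 32.7% to 21.7%.

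TUG1 followed the same libraries in a narrower range, with 95.7, 95.8, 89.7 and 102.2 CPM with DMSO and 107.6, 89.0, 98.2 and 123.3 CPM with lenalidomide. Lenalidomide replicate 4 was the highest and lenalidomide replicate 2 the lowest of the 8. The coefficient of variation was 5.31% with DMSO and 14.02% with lenalidomide, and 1058 of the 9094 genes had a larger standard deviation within treatments.

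OIP5-AS1 was the steadiest member. Its DMSO libraries were at 43.4, 44.8, 38.5 and 42.2 CPM, its lenalidomide libraries at 38.5, 43.3, 42.8 and 40.8 CPM. All 8 libraries lay within a 1.16-fold range. Its standard deviation of log2 CPM within treatments, 0.086, was below the median of 0.091, and 5038 of the 9094 genes had a larger one. MIAT was near the limit of these libraries, with 42 to 58 counts each. The DMSO libraries were at 1.55, 1.44, 1.23 and 1.11 CPM, those with lenalidomide at 1.46, 1.57, 1.43 and 1.70 CPM. The coefficient of variation of MIAT was 15.03% with DMSO and 7.94% with lenalidomide, where counting error gives 14.5% and 14.4%, so that a spread beyond counting was not detectable at this depth.

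**Figure D1:**
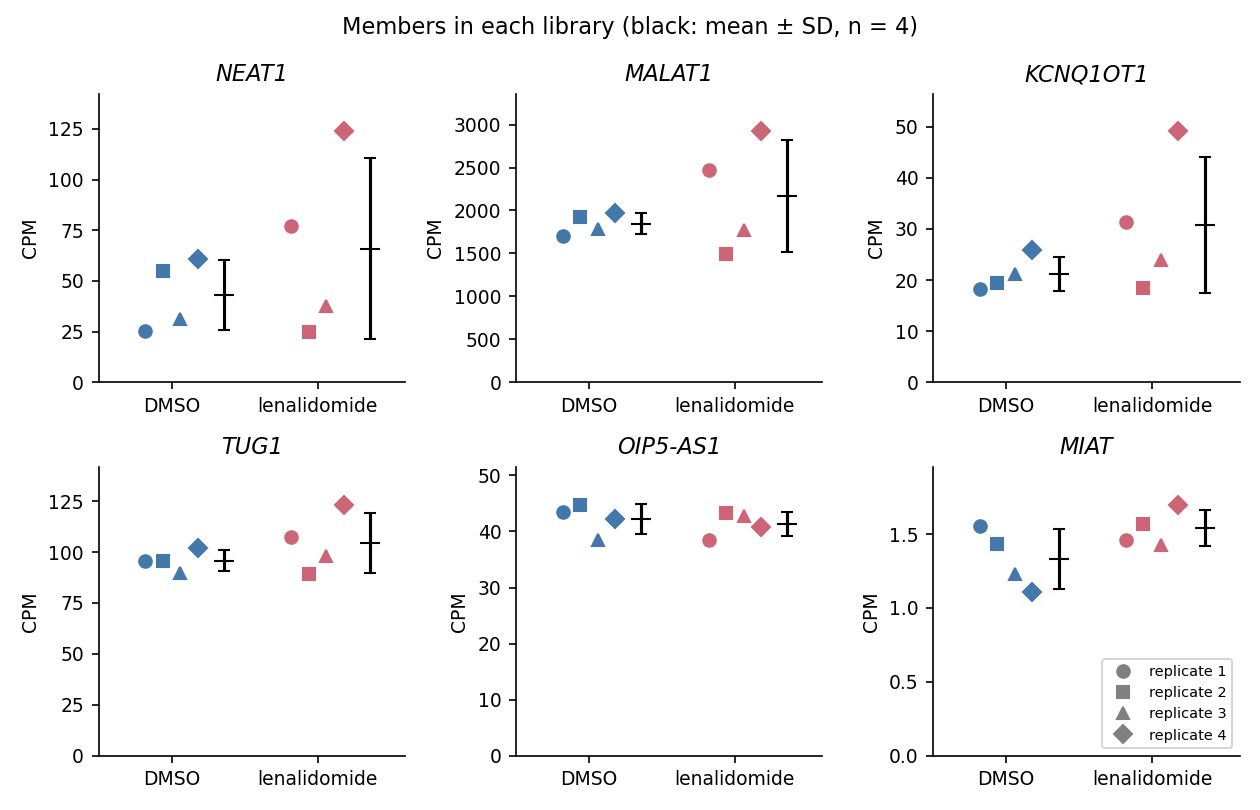
Level of each member in CPM (vertical axis, from 0) in the 4 DMSO and 4 lenalidomide libraries; marker shapes stand for replicate numbers and the black bars for the mean ± SD. NEAT1 ranges from 24.9 to 123.9 CPM with both treatments holding low libraries, while OIP5-AS1 stays between 38.5 and 44.8 CPM.

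NEAT1, MALAT1, KCNQ1OT1 and TUG1 rose and fell together from library to library, whereas OIP5-AS1 and MIAT did not follow them. Across the 8 libraries on the log2 CPM scale, all 6 pairs among the former had a Pearson correlation between 0.89 and 0.95. NEAT1 and MALAT1 had r = 0.95 (exact permutation over all pairings of the 8 libraries, two-sided, p = 4.96e-05) and Spearman's rho = 0.98 (exact permutation p = 0.000397). NEAT1 and TUG1 had r = 0.91 (exact permutation p = 0.00131) and rho = 0.95 (exact permutation p = 0.00114). NEAT1 and KCNQ1OT1 had r = 0.89 (exact permutation p = 0.00263) and rho = 0.90 (exact permutation p = 0.00456). The pairs that did not include NEAT1, MALAT1 with KCNQ1OT1, MALAT1 with TUG1 and KCNQ1OT1 with TUG1, had r = 0.93, 0.94 and 0.95 (exact permutation p = 0.00144, 0.00102 and 0.00136). Each of these 3 had rho = 0.88 (exact permutation p = 0.00724). With Benjamini-Hochberg adjustment over the 15 pairs of members, these 6 had exact permutation p-values between 0.000744 and 0.00657 for r and between 0.00595 and 0.0181 for rho.

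The 9 pairs with OIP5-AS1 or MIAT had r between -0.47 and 0.33, and the smallest adjusted exact permutation p among them was 0.468. NEAT1 had r = -0.30 with OIP5-AS1 (exact permutation p = 0.461; rho = -0.40, exact permutation p = 0.327) and r = 0.12 with MIAT (exact permutation p = 0.77; rho = 0, exact permutation p = 1). The low counts of MIAT limit what its correlations can show. The points share library, depth and scaling, and the members were picked with the spread of NEAT1 known.

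With the treatment means removed, the 6 pairs had r between 0.91 and 0.95, and the largest adjusted exact permutation p was 0.0477, with pairings drawn within treatments. Lenalidomide replicate 4 carried part of the relation. Without it the 6 pairs still had r between 0.80 and 0.91, but only the pair of NEAT1 and MALAT1 kept an adjusted p under 0.05, and the largest adjusted exact permutation p was 0.0863. Without the 2 libraries farthest from the median of NEAT1, lenalidomide replicates 4 and 2, NEAT1 had r = 0.89 with MALAT1 (exact permutation p = 0.00556, n = 6), 0.76 with KCNQ1OT1 (exact permutation p = 0.0875) and 0.78 with TUG1 (exact permutation p = 0.0667). Leaving out lenalidomide replicates 4 and 1, farthest from the medians of MALAT1 and KCNQ1OT1, gave r = 0.60 for MALAT1 with KCNQ1OT1 (exact permutation p = 0.199), 0.72 for MALAT1 with TUG1 (exact permutation p = 0.0958) and 0.67 for KCNQ1OT1 with TUG1 (exact permutation p = 0.154). Adjusted over the 15 pairs, the exact permutation p of NEAT1 with MALAT1 was 0.0833 without lenalidomide replicates 4 and 2. All 6 relations thus rest in part on the extreme libraries.

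**Figure D2:**
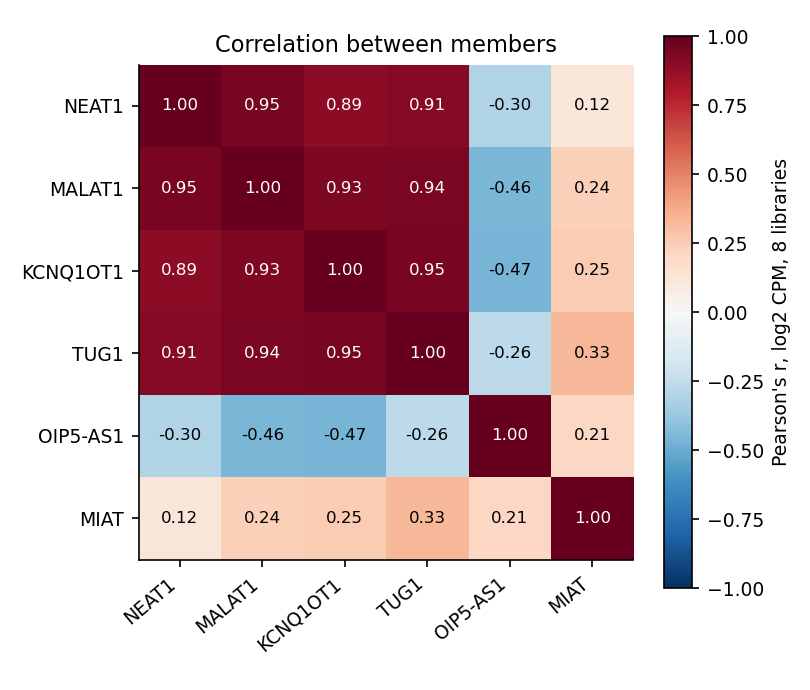
Pearson's r between members over 8 libraries on the log2 CPM scale, by colour from -1 to 1 and as a number in each cell. The block of NEAT1, MALAT1, KCNQ1OT1 and TUG1 is at 0.89 or more, and OIP5-AS1 and MIAT are at 0.33 or less with every other member.

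The same libraries also differed in how many genes were detected. Counts in the 9534 genes that did not pass the filter came to 266.2, 348.3, 314.4 and 399.3 CPM, here by library total without the TMM factor, in DMSO replicates 1 to 4 and 414.5, 276.5, 323.7 and 784.4 CPM in lenalidomide replicates 1 to 4. This measure moved with NEAT1, at r = 0.93 (exact permutation p = 4.96e-05) and rho = 0.98 (exact permutation p = 0.000397) on log2 scales over 8 libraries. It also moved with MALAT1 (r = 0.93, rho = 0.95), KCNQ1OT1 (r = 0.96, rho = 0.93) and TUG1 (r = 0.93, rho = 0.90), with exact permutation p-values between 0.000149 and 0.00456. Its r was -0.32 with OIP5-AS1 and 0.25 with MIAT (exact permutation p = 0.473 and 0.529). Adjusted over the 18 relations of the 6 members with 3 library measures, the exact permutation p-values of those 4 members were between 0.000893 and 0.0117. Without lenalidomide replicate 4 and DMSO replicate 1, the r of NEAT1 with it was 0.97 (exact permutation p = 0.00417, n = 6).

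The number of genes with counts gave r = 0.94 with NEAT1 (exact permutation p = 0.000298; rho = 0.95, exact permutation p = 0.00114). Without lenalidomide replicate 4 and DMSO replicate 1 this r was 0.86 (exact permutation p = 0.0194, n = 6). Library totals gave r = -0.68 with NEAT1 (exact permutation p = 0.0674; rho = -0.33, exact permutation p = 0.428), -0.75 with MALAT1 (exact permutation p = 0.0348), -0.82 with KCNQ1OT1 (exact permutation p = 0.0135) and -0.73 with TUG1 (exact permutation p = 0.0398). Of these, KCNQ1OT1 had an adjusted exact permutation p under 0.05 over the 18 relations, at 0.0269. Without lenalidomide replicates 4 and 1 these r were 0.33, 0.55, 0.096 and 0.51 in the same order, so that the relations with library totals rest on those libraries. With the linear relation to the counts in genes not tested removed from both genes, r was 0.64 for NEAT1 with MALAT1, 0.32 for NEAT1 with TUG1 and -0.027 for NEAT1 with KCNQ1OT1, given as a description over 8 libraries. It was 0.57 for MALAT1 with TUG1, 0.51 for KCNQ1OT1 with TUG1 and 0.38 for MALAT1 with KCNQ1OT1. The part of this measure in the spread of the members was not tested beyond these values.

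**Figure D3:**
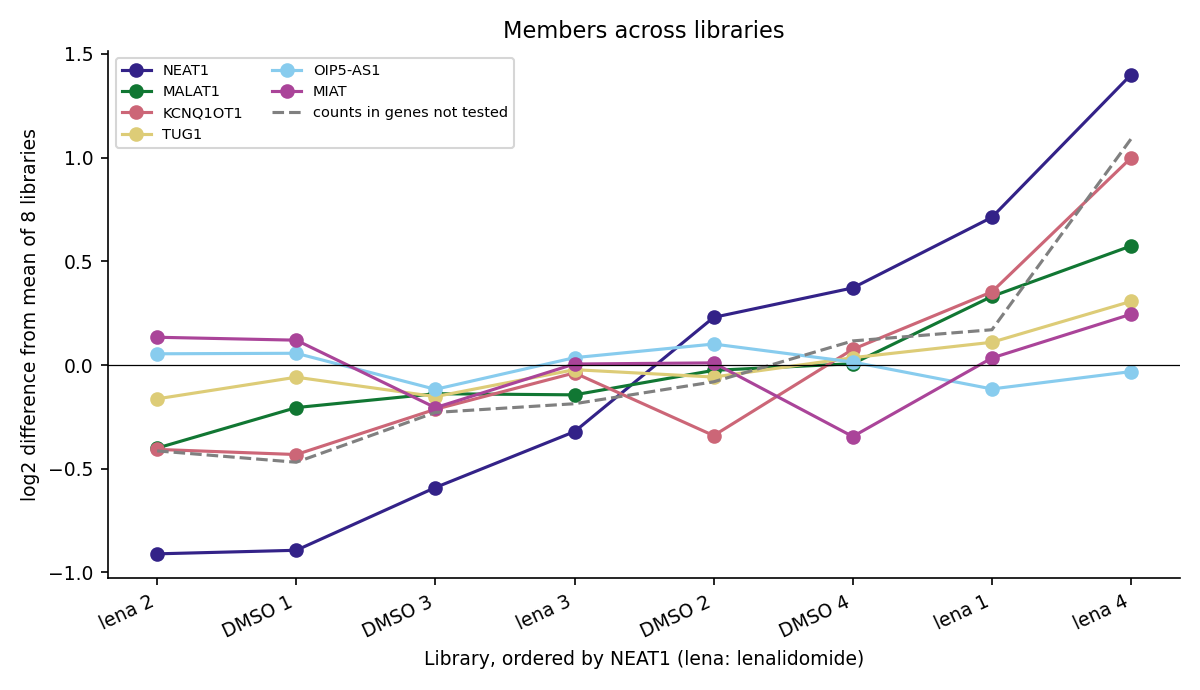
Log2 CPM of each member minus its mean over 8 libraries (vertical axis), with libraries ordered along the horizontal axis by their NEAT1 level; the dashed line gives the log2 CPM summed over genes not tested, treated likewise. NEAT1, MALAT1, KCNQ1OT1 and TUG1 and the dashed line are highest in lenalidomide replicate 4, and OIP5-AS1 stays near 0.

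Promoters are shown for MALAT1 and TUG1, which varied together, and for OIP5-AS1, which did not. The RefSeq promoter sequences (GRCh38.p14, 250 bases before to 50 after a start site, plus strand for these genes) hold 5 entries for 4 of the 6 members, and NEAT1 and KCNQ1OT1 had no entry. The windows are chr11:65498795-65499094 for MALAT1, chr22:30969015-30969314 for TUG1 and chr15:41283740-41284039 for OIP5-AS1. Capitals mark 4 motifs searched on both strands, the TATA box TATAAA, the CCAAT box CCAAT, the GC box GGGCGG and the E-box CACGTG.
MALAT1: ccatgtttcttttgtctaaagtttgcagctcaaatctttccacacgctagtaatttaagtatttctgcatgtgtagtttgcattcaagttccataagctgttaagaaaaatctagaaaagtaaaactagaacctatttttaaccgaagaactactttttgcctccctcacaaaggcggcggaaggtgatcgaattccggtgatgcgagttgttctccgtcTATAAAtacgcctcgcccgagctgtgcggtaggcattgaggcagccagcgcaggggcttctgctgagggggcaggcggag
TUG1: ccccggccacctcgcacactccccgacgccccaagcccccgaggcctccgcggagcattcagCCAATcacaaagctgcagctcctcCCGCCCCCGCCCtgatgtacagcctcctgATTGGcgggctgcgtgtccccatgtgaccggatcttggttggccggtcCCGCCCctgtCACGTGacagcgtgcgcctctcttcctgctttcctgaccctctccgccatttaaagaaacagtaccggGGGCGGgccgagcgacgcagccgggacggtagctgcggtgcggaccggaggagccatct
OIP5-AS1: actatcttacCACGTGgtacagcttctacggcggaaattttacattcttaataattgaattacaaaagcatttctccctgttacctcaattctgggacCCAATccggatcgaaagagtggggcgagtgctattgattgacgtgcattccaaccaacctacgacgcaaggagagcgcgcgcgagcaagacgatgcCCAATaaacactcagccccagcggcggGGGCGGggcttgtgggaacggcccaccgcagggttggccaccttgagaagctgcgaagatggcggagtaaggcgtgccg

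The printed window of MALAT1 holds 1 TATA box, which starts 30 bases before the start site, and none of the other motifs. The windows of TUG1 and OIP5-AS1 each hold 2 CCAAT boxes and 1 E-box, with 4 GC boxes in TUG1 and 1 in OIP5-AS1. Their GC content is 46.0% for MALAT1, 67.7% for TUG1 and 54.3% for OIP5-AS1. Of all 35116 promoter windows of this length, 11.5% hold the TATA box, 34.6% the CCAAT box, 45.0% the GC box and 7.26% the E-box. MALAT1 has an upstream start site in RefSeq too (chr11:65497488-65497787, not printed), whose window holds 5 GC boxes and none of the other 3 motifs, with a GC content of 73.7%.

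The question of the RNA-seq experiment was whether lenalidomide changed RNA levels at 16 h. For the 6 members no difference beyond the spread between replicates was found (edgeR, quasi-likelihood F test, Benjamini-Hochberg over all 13925 genes). Of the 6, 0 had an adjusted p under 0.05, where 0.0144% of all genes tested did, and each had an adjusted p of 0.999. At an unadjusted p under 0.05, 1 of the 6, KCNQ1OT1, was found, and it was higher with lenalidomide. Of all genes 4.18% were found in this way, 3.26% higher and 0.919% lower with lenalidomide. DESeq2 and edgeR's likelihood ratio test also gave 0 members with an adjusted p under 0.05. The treatments overlapped for each of the 6, and 2.08% of all genes had treatments that did not overlap.

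NEAT1, the paraspeckle RNA, averaged 43.05 ± 17.5 CPM in the DMSO libraries and 65.8 ± 44.6 CPM in the lenalidomide libraries (SD, n = 4 each). This gave a log2 fold change of 0.61 and a 95% confidence interval from -0.23 to 1.45, that is, from 0.8504-fold to 2.73-fold. In 2 of the 4 lenalidomide libraries NEAT1 was above the DMSO median. Without lenalidomide replicate 4 the log2 fold change was 0.11. With the CPM summed over genes not tested as a covariate, on a log2 scale, it was -0.072. The interval includes both no change and a change of 2.73-fold.

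KCNQ1OT1 averaged 21.2 ± 3.38 CPM in the DMSO libraries and 30.75 ± 13.4 CPM in the lenalidomide libraries (SD, n = 4 each). Lenalidomide against DMSO came to 0.53 on the log2 fold scale (95% confidence interval 0.058 to 1.01), and the quasi-likelihood test of edgeR gave an unadjusted p of 0.0306 (Benjamini-Hochberg adjusted p = 0.999). The two-sided exact permutation test of its log2 CPM over the 70 splits of 4 against 4 gave p = 0.229. Of the 4 lenalidomide libraries 3 were above the DMSO median. Without lenalidomide replicate 4 its log2 fold change was 0.22, with an unadjusted p of 0.174 by the same edgeR test. With the covariate from genes not tested it was 0.17.

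MALAT1 averaged 1847 ± 125 CPM in the DMSO and 2165 ± 652 CPM in the lenalidomide libraries (SD, n = 4 each), which is a log2 fold change of 0.23 with an interval from -0.11 to 0.57. Without lenalidomide replicate 4 it was 0.049, and with the same covariate -0.0074. TUG1 had a log2 fold change of 0.12, with an interval from -0.055 to 0.30, and of 0.035 without lenalidomide replicate 4. For OIP5-AS1 it was -0.029, with an interval from -0.16 to 0.10, that is, from 0.894-fold to 1.075-fold. For MIAT it was 0.21, with an interval from -0.14 to 0.56, and 0.16 without lenalidomide replicate 4. All 4 lenalidomide values of MIAT were above its DMSO median, but the highest DMSO value of 1.55 CPM lay above 2 of them. The two-sided exact permutation p was 0.486 for NEAT1, 0.457 for MALAT1, 0.343 for TUG1, 0.657 for OIP5-AS1 and 0.143 for MIAT, where the smallest p that 4 against 4 allow is 0.0286.

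**Figure D4:**
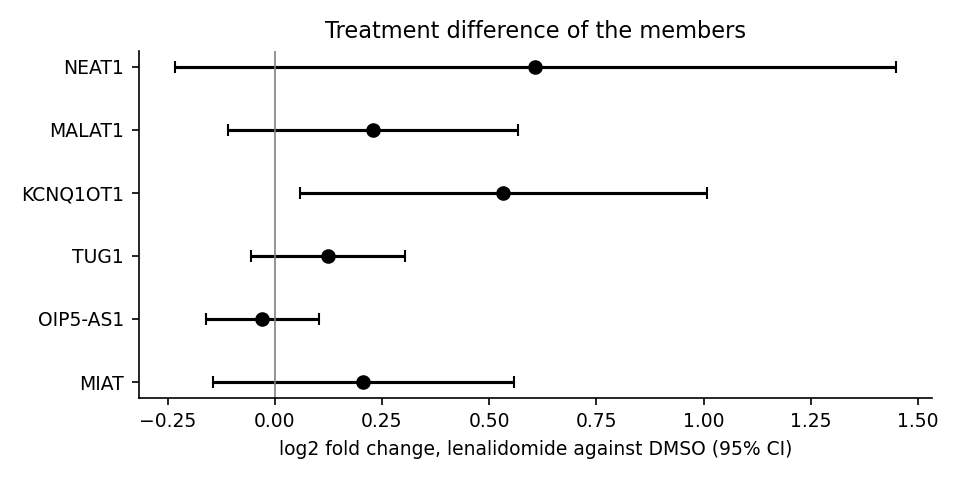
Log2 fold change of each member, lenalidomide against DMSO (horizontal axis), with the 95% confidence interval from edgeR's quasi-likelihood fit of all genes. The interval of KCNQ1OT1 lies just above 0, from 0.058 to 1.01, with an adjusted p of 0.999, and the other 5 intervals include 0.

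Other genes shared the pattern of NEAT1 across libraries. Over the other 9093 genes averaging 10 CPM or more, r with NEAT1 had a median of -0.13, and 70 genes, or 0.77%, had r above 0.9, among them MALAT1 and TUG1. A further 119 genes had r below -0.9. Of all these genes 17 were closer to NEAT1 than MALAT1, 51 closer than TUG1 and 78 closer than KCNQ1OT1. These correlations over 8 libraries are descriptions and have no p-value. Each r with NEAT1 of a gene outside the members includes lenalidomide replicate 4.

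The 8 genes outside the members most alike to NEAT1 were SNHG17, FANCA, VPS13A, LAMA5, OGT, CAMTA2, RTTN and HERC2P2, with r between 0.97 and 0.99. SNHG17, a noncoding host gene of small nucleolar RNAs, ran from 13.9 to 21.4 CPM, and LAMA5, a laminin chain, from 12.6 to 29.3 CPM. VPS13A, a lipid transfer protein, ran from 69.2 to 133.7 CPM. OGT, the O-GlcNAc transferase, whose transcript is known for an intron that is retained in the nucleus, ran from 143.1 to 188.3 CPM with r = 0.98. Their ranges were thus from 1.31-fold to 2.32-fold between the lowest and highest library, all narrower than the 4.97-fold of NEAT1. The 4 genes most opposed were MATR3, COIL, KIF3A and SF3B1, with r between -0.98 and -0.97. MATR3 encodes a nuclear matrix protein, COIL the marker protein of Cajal bodies and SF3B1 a core splicing factor, and each of the 4 varied by at most 1.21-fold. Each of the 12 genes had an adjusted p of 0.999 in the edgeR quasi-likelihood comparison of treatments.

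**Figure D5:**
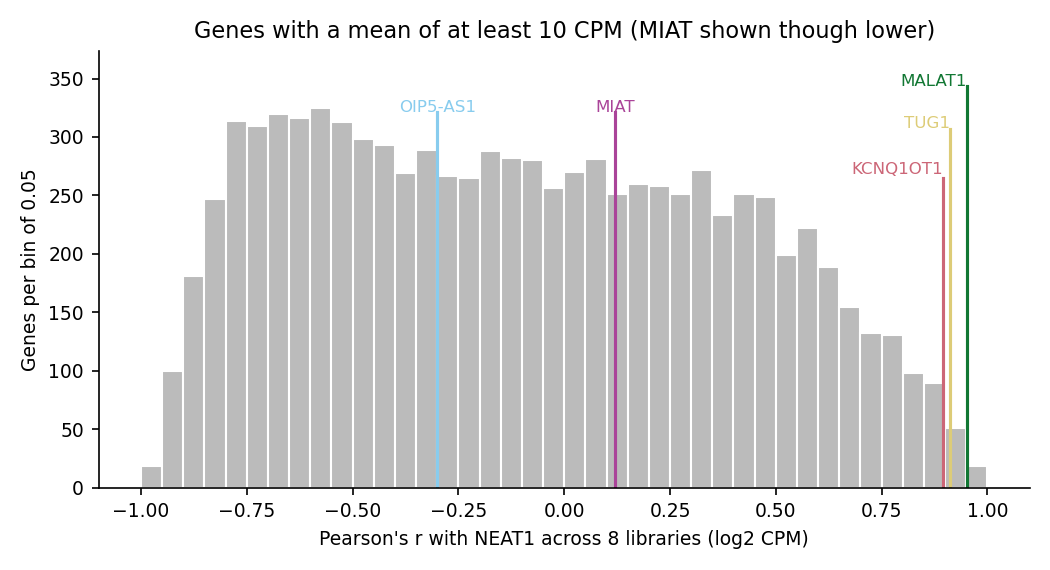
Number of genes (vertical axis) by their Pearson's r with NEAT1 across 8 libraries on the log2 CPM scale (horizontal axis, bins of 0.05), for genes averaging 10 CPM or more, with the other members marked as lines, MIAT too although it is lower. MALAT1, TUG1 and KCNQ1OT1 lie in the upper tail at 0.89 to 0.95, and OIP5-AS1 and MIAT lie within the bulk at -0.30 and 0.12.

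The proteins of the bodies that NEAT1 and MALAT1 belong to were followed through their mRNAs. Of 22 paraspeckle protein genes, 0 had an adjusted p under 0.05 and 2 had an unadjusted p under 0.05, both higher with lenalidomide, against 0.0144% and 4.18% of all genes. The list's median log2 fold change was -0.018, beside 0.0025 over all genes tested. Among these was TARDBP (0.33, standard error 0.12), which encodes an RNA-binding protein, and the lowest of the list was UBAP2L at -0.080. Across libraries the core proteins ran against NEAT1, with r = -0.80 for SFPQ, -0.76 for NONO and -0.88 for PSPC1, as a description. Of the 22 genes 7 had r above 0, led by CPSF7 at 0.81.

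Of 19 genes of nuclear speckle proteins and splicing factors, where MALAT1 resides, 0 had an adjusted p under 0.05, against 0.0144% of all genes. The list's median log2 fold change was -0.012. At an unadjusted p under 0.05, 2 were found, both higher with lenalidomide, against 4.18% of all genes, 3.26% being higher. These 2 were the speckle scaffold genes SRRM2, at 0.40 (standard error 0.15), and SON, at 0.24 (standard error 0.10). The lowest was SRSF2 at -0.079. Of 15 mRNAs known for nuclear-retained forms, 0 had an unadjusted p under 0.05, and log2 fold changes ran from -0.099 for SRSF5 to 0.10 for NKTR. OGT, MAT2A, NKTR and CCNL2 were the closest to NEAT1 in this list (r = 0.98, 0.90, 0.84 and 0.84), while SRSF7 had r = -0.54, and the list's median r was 0.32.

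Genes for processing and decay showed no call either. Of 13 genes for the maturation of the MALAT1 end, among them RNase P subunits and ELAC2, 0 had an unadjusted p under 0.05, and log2 fold changes ran from -0.090 for POP4 to 0.12 for RPP25. Of 12 genes of nuclear RNA decay, 0 had an adjusted p under 0.05 and 1 an unadjusted p under 0.05, against 0.0144% and 4.18% of all genes. The 1 gene was ZFC3H1, which links nuclear polyadenylated RNA to the exosome, with a log2 fold change of 0.31 (standard error 0.090). The lowest was C1D at -0.13, and the exonuclease gene XRN2 had r = -0.91 with NEAT1.

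Noncoding RNAs that are cytoplasmic or host small nucleolar RNAs were listed beside the members. Of 15 listed, 14 were tested, and 0 of these had an unadjusted p under 0.05, against 4.18% of all genes. These 14 RNAs had log2 fold changes from -0.057 for SNHG15 to 0.11 for DANCR. Their r with NEAT1 ran from -0.70 for ZFAS1 to 0.79 for SNHG1, with a median of 0.38, so that several lay above OIP5-AS1 and MIAT. SNHG17, the host gene closest to NEAT1, was not in this list. The difference between these RNAs and the members was not tested.

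Neighbouring genes were examined at each locus, since KCNQ1OT1 is known to act in cis. Of 10 tested neighbours of KCNQ1OT1, 0 had an unadjusted p under 0.05, against 4.18% of all genes. At that share a list this short can hold 0, so that no conclusion on action in cis is drawn. KCNQ1, which encodes a potassium channel subunit, was near the limit at 31 to 51 counts per library, with a log2 fold change of 0.27 (standard error 0.19) and r = 0.38 with NEAT1. CDKN1C, a cell cycle inhibitor, had 48 to 82 counts and a log2 fold change of -0.16 (standard error 0.16), and SLC22A18 was the highest at 0.39 (standard error 0.27). Of 13 tested neighbours of NEAT1 and MALAT1, 0 had an unadjusted p under 0.05, against the same 4.18%. These neighbours had log2 fold changes from -0.19 for SLC25A45 to 0.12 for TIGD3. Their median r with NEAT1 was 0.44. LTBP3, which encodes a TGF-beta binding protein, had r = 0.91, while FRMD8 had r = -0.21.

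Of the tested neighbours, 6 of TUG1, 7 of OIP5-AS1 and 4 of MIAT, 0 had an unadjusted p under 0.05, against 4.18% of all genes. OIP5, antisense to OIP5-AS1, was at 0.073 on the log2 fold scale (standard error 0.069), the highest of its locus, where ITPKA was the lowest at -0.064. Near TUG1 values ran from -0.040 for RNF185 to 0.15 for MORC2, and near MIAT from -0.085 for TFIP11 to 0.27 for MN1.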

How the data were processed

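Total RNA of 8 Hct116 cultures was made into ScriptSeq libraries. The authors aligned the reads to hg19 (GRCh37) with QuasR with spliced alignment and otherwise default settings, and deposited raw read counts per gene of the UCSC known genes, without normalization, beside the exonic width of each gene. The submitters' processing notes name bcl2fastq 2.17. Versions of the other upstream tools are not given in the sources used here. Of the rows, 70 had no symbol and held 0.0223% of the counts.

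The software was R 4.3.3, edgeR 4.0.16 and DESeq2 1.42.0. filterByExpr (minimum count 10, minimum total 15) left 13925 genes. TMM scaling and the quasi-likelihood test with treatment as the only term gave log2 fold changes, with 95% intervals from the coefficient and its F statistic, and Benjamini-Hochberg adjustment with a threshold of 0.05. Log2 CPM values had a prior count of 2. Correlations used exact permutation over all pairings in Python 3.11.15 with NumPy 2.4.6. The test was tested on simulated data. Members, lists and tests were chosen with earlier results of these data known. Named from each list were genes past the threshold, those with an unadjusted p under 0.05, and otherwise the highest and lowest log2 fold change; from all genes with at least 10 CPM, the 8 most alike and 4 most opposed to NEAT1 by r; and KCNQ1, OIP5 and CDKN1C. Any further gene was picked with its values in view, and some genes of the lists are not reported here.

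Totals were between 28218471 and 37473413 counts. No library was a copy of another, since counts of library pairs differed by a chi-square of at least 5.70 for each degree of freedom. Coefficients from counting alone cover counting error only, since PCR copies were not marked. Settings varied were the scaling (RLE), the test (DESeq2, edgeR's likelihood ratio test), the filter, a replicate block and the omission of each library. A covariate from counts in genes not tested was added after the data were examined.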

Additional observations from a re-analysis of the deposited data

How the results depend on the processing

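The depth of MIAT, at most 58 counts per library, limits what can be said of it. For the 6 members, 90 alternative log2 fold changes were computed, and 0 of them had an adjusted p under 0.05. The smallest adjusted p was 0.267, for KCNQ1OT1 with the replicate block by edgeR's quasi-likelihood test. Of the 90, 86 kept their direction. When single libraries were omitted, the log2 fold change ran from 0.11 to 0.88 for NEAT1, from 0.049 to 0.37 for MALAT1, from 0.22 to 0.71 for KCNQ1OT1, from 0.035 to 0.19 for TUG1, from -0.074 to 0.0035 for OIP5-AS1 and from 0.13 to 0.29 for MIAT. Adding counts in genes not tested as a covariate, a choice made with the data known, put NEAT1 at -0.072 and MALAT1 at -0.0074. The cause was not tested.

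The number of genes called, 2 by the quasi-likelihood test, became 9 under DESeq2, 12 under edgeR's likelihood ratio test, 4 when all genes with a count were kept, 6 under the replicate block, and 1 to 2 when single libraries were omitted. The members were in none of these calls. Whether the numbers pair the samples is not settled by the deviations of the libraries. Those of same-numbered libraries of both treatments correlated at 0.028, -0.024, 0.031 and 0.27, the last for replicate 4. Libraries of different number correlated between -0.29 and 0.17, below the value of replicate 4.

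The number of correlated member pairs was 6 with RLE scaling, with linear CPM and with treatment means removed, and from 1 to 6 with each library left out, the 1 being without lenalidomide replicate 4. The weak correlation of NEAT1 with MIAT changed sign, to -0.062 with treatment means removed, to -0.22 without the 2 libraries farthest from the NEAT1 median, and it ran from -0.38 to 0.38 over the fits without one library. Of 12 groups of 4 values examined for a library far from the others, 0 held one.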
